A study of Mus musculus with 16 samples.

Results

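The genes described here encode 10 receptor chains through which T cells sense IL-12, IL-18, IL-6, IL-27, IL-10, interferon-γ (IFNγ) and type I interferons. They are *Il12rb1*, *Il12rb2*, *Il18r1*, *Il18rap*, *Il6ra*, *Il6st*, *Il27ra*, *Il10ra*, *Ifngr1* and *Ifnar1*. They were chosen by name with earlier results of these data known, and all 10 are among the 54532 genes of the count table. The samples were bulk RNA-seq libraries of mouse CD8+ T cells, isolated in the naive state from spleens of C57BL/6J mice and activated repeatedly in culture over 4 days into TCF1+CD8+ T cells, a state named after the transcription factor of stem-like T cells. All cells then spent 4 h in a low dose of IL-2 (85 U/ml), so that no group was free of cytokine. Unstimulated untreated cells received IL-2 alone, and stimulated untreated cells received IL-2 together with 1 bead per cell. Each bead was coated with anti-CD3 and anti-CD28 to engage the T cell receptor and the costimulatory receptor CD28. Before these 4 h, all cells were kept for 1 h at 37 °C. Unstimulated PGE2 cells and stimulated PGE2 cells spent this hour in 100 ng/ml prostaglandin E2 (PGE2), a lipid that tumours release. The untreated cells spent it without PGE2. Apart from PGE2, the treated cells were handled like the untreated cells of the same state. Each of the 4 groups held 4 replicates. The sources used here do not say whether replicates were separate animals or cultures, so the tests measure the spread between these samples, which may be technical. The cells were differentiated in vitro, and messenger RNA was measured, not receptor protein at the cell surface.

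Cytokine receptors of this kind work as pairs of chains. IL-12 signals through *Il12rb1*, which binds the cytokine and is shared with the IL-23 receptor, and *Il12rb2*, which recruits STAT4. IL-18 binds *Il18r1* and signals once *Il18rap*, the accessory chain, has joined. IL-6 binds *Il6ra* and IL-27 binds *Il27ra*, and both signal through *Il6st* (gp130). *Ifngr1* pairs with *Ifngr2*, *Ifnar1* with *Ifnar2*, and *Il10ra* with *Il10rb*. In CD8+ T cells, IL-12, IL-18 and the interferons are known as inflammatory signals that act beside the T cell receptor, and IL-10 and IL-27 are known for restraining as well as supporting effects.

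Summed counts per sample were 22678254 to 42950763 with a median of 30211840.5. A chain collected between 89 counts (*Il6ra*) and 41038 counts (*Ifngr1*) in a sample. The 6 CD8+ T cell markers were present in every sample, *Cd8a* at 667 to 1210 CPM (counts scaled to library size) and *Tcf7*, which encodes TCF1, at 289 to 1540 CPM. *Ncr1* and *Siglech*, which define natural killer and plasmacytoid dendritic cells, were at 0 in every sample, and the myeloid genes *Lyz2* and *Csf1r* did not exceed 0.0594 CPM. The other myeloid markers were higher, *Cd68* at 2.65 to 6.19 CPM, and *Fcgr3*, *Itgam*, *Adgre1* and *Cd14* at up to 0.816 CPM. The CD4+ T cell markers were also detected, *Foxp3* at 3.09 to 9.07, *Cd40lg* at 0.221 to 4.55 and *Cd4* at 0 to 1.87 CPM. Summed markers of 3 other cell types moved with the groups. The B cell markers *Cd79a*, *Cd79b*, *Ms4a1* and *Pax5* summed to 12 to 19.3 CPM in unstimulated untreated, 9.98 to 15.8 in unstimulated PGE2, 4.88 to 10.7 in stimulated untreated and 4.37 to 8.14 in stimulated PGE2 cells, and none of the 4 was at 0 throughout a group. The 4 natural killer markers, nearly all *Eomes*, which CD8+ T cells also express, summed to 12.4 to 24.1 CPM in unstimulated untreated, 5.55 to 10.9 in unstimulated PGE2, 112 to 178 in stimulated untreated and 36.5 to 128 in stimulated PGE2 cells. The 4 dendritic cell markers, nearly all *Zbtb46* and *Xcr1*, summed to 2.51 to 6.16 CPM without beads and 10.7 to 17.8 CPM with beads. The part of these genes in the results was not tested. In bulk samples, fewer cells with a transcript and less transcript per cell cannot be told apart.

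Of the members with a RefSeq promoter window (7 of 10, in 9 windows; *Il12rb1*, *Il10ra* and *Il27ra* have none in the table), 4 passed the test for PGE2 in both states, and the 250 bases before their start sites (RefSeq, GRCm38.p6) are shown 5′ to 3′ on the strand of the gene, since these genes carry the PGE2 result. Capitals mark matches on either strand to TGACG, the core of the cAMP response element, and to TTCNNNGAA, a STAT motif, and the matches do not overlap. PGE2 receptors of T cells are known to raise cAMP, and several of these receptors signal through STAT proteins.
*Ifngr1*, + strand, chr10:19591699-19591948: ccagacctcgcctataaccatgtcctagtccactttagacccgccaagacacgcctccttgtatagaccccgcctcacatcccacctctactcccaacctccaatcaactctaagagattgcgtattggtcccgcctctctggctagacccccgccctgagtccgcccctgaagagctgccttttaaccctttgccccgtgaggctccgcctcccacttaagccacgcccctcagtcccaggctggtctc
*Ifnar1*, + strand, chr16:91484965-91485214: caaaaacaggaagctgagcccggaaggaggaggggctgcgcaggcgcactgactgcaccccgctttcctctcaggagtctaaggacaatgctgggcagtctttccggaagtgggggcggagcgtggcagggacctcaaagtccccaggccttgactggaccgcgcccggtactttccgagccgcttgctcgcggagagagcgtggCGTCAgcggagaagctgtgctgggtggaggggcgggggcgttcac
*Il12rb2*, - strand, chr6:67376189-67376438: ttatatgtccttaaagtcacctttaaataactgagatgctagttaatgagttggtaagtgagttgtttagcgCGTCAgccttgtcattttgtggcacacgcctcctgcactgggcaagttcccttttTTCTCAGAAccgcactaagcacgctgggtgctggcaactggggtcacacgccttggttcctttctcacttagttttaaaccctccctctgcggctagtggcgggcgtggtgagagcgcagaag
*Il6ra*, - strand, chr3:89913197-89913446: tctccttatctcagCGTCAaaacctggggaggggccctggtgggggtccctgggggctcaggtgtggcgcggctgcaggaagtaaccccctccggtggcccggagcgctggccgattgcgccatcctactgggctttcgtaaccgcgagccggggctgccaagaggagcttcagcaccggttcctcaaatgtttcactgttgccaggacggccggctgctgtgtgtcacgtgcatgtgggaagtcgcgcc
TGACG stood in the windows of *Ifnar1*, *Il12rb2* and *Il6ra*, 45, 178 and 236 bases before the start, and in 17.8% of 32851 promoter windows of this length. The window of *Ifngr1* held neither motif. TTCNNNGAA stood in the window of *Il12rb2*, 123 bases before the start, and in 1 of the 3 windows of *Il18r1*, against 7.02% of all windows. The AP-1 motif TGANTCA, present in 6.75% of windows, was in no window of a member. A match is a run of letters and does not show that a factor binds there.

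To see how PGE2 altered the receptor RNAs, treated and untreated cells were compared in each state. In stimulated cells PGE2 raised *Ifngr1* 3.78-fold, *Il12rb2* 2.84-fold and *Ifnar1* 1.57-fold, and lowered *Il6ra* to 0.429, *Il12rb1* to 0.769 and *Il18rap* to 0.780 of the untreated value. Thus 6 of the 10 chains passed the test (edgeR quasi-likelihood test, adjusted p below 0.05), 3 higher and 3 lower, beside 9.84% of all 13922 genes tested, 6.04% higher and 3.8% lower. The study's threshold for a differentially expressed gene (DEG), which also asks for a 2-fold change, was met by *Ifngr1*, *Il12rb2* and *Il6ra*, beside 1.75% of all genes. By the size of the log2 fold change, *Ifngr1* ranked 39, *Il12rb2* 89 and *Il6ra* 196 of 13922. The CPM ranges of the groups did not overlap in 7 chains, beside 17.9% of all genes. The median of the absolute log2 fold changes was 0.39 over the 10 chains and 0.18 over all genes. The chains were chosen with earlier results of these data known. The shares of all genes given here and below are therefore a description and do not test the chains as a set.

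In unstimulated cells PGE2 raised *Il12rb2* 1.92-fold, *Ifngr1* 1.60-fold and *Ifnar1* 1.32-fold, and lowered *Il6ra* to 0.414 and *Il27ra* to 0.690 of the untreated value. Here 5 of the 10 chains passed, 3 higher and 2 lower, beside 28.4% of 14505 genes tested, 12.9% higher and 15.5% lower. *Il6ra* was the member that also changed at least 2-fold, beside 3.38% of all genes. The groups did not overlap in 4 chains (*Il12rb2*, *Ifngr1*, *Ifnar1* and *Il27ra*), beside 28.9% of all genes. Same-numbered replicates deviated together in both PGE2 comparisons. With the replicate number as a block, 8 chains passed in unstimulated cells, *Il12rb1* (adjusted p = 5.52e-05), *Il18rap* (0.0222) and *Il6st* (0.00891) in addition, and the block called 47.8% of all genes. In stimulated cells the block also gave 8, beside 39.8% of all genes, with *Il18r1* (4.57e-04) and *Il27ra* (4.04e-04) in addition.

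**Figure D1:**
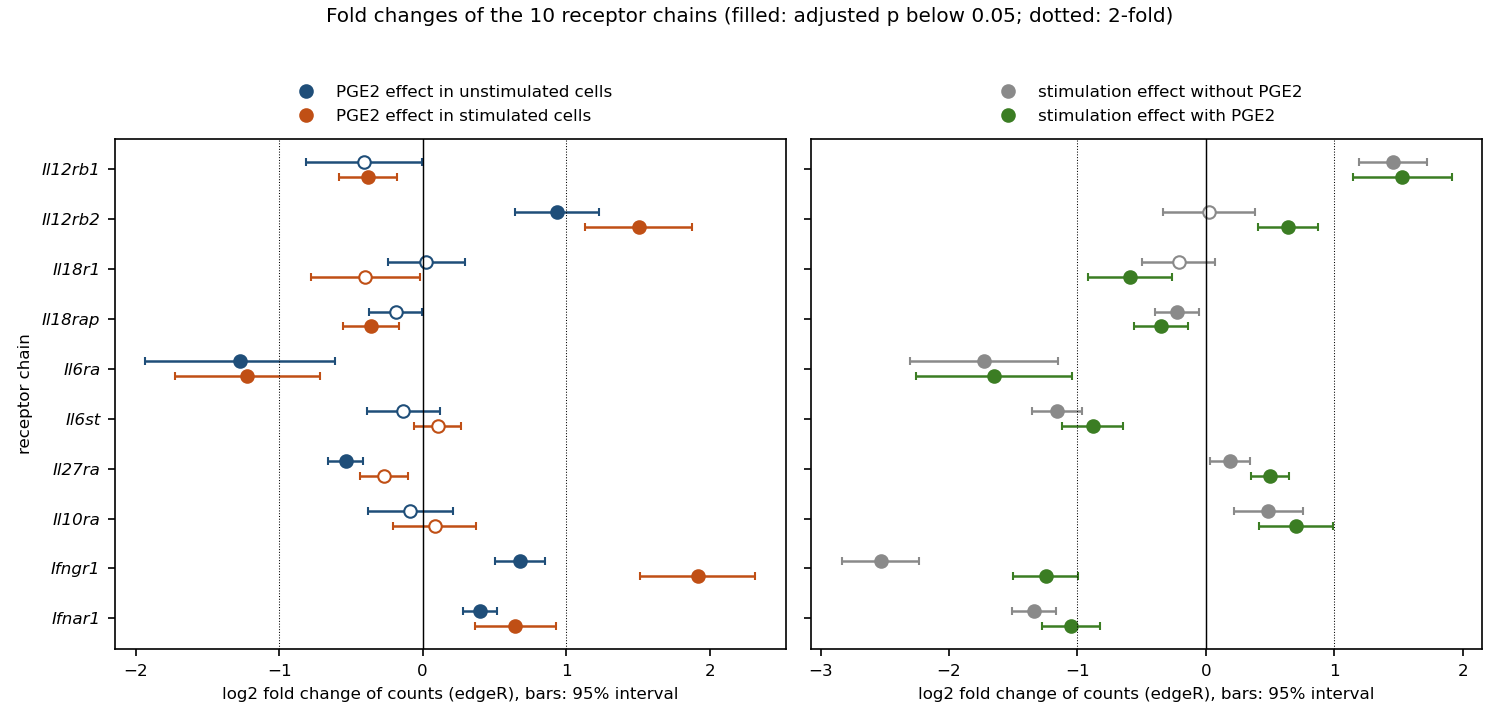
Log2 fold changes of the 10 receptor chains (x axis) with 95% intervals for PGE2 in each state (left) and for stimulation without and with PGE2 (right), filled where the adjusted p was below 0.05 in the fit without a replicate block; dotted lines mark a 2-fold change. *Ifngr1*, at 1.92 with PGE2 in stimulated cells and -2.53 with stimulation alone, lies farthest from 0 in both directions.

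Bead stimulation moved *Ifngr1*, *Ifnar1*, *Il6ra* and *Il6st* down and *Il12rb1* up. Without PGE2, 8 of the 10 chains passed the test, 3 higher and 5 lower, beside 66.5% of 14205 genes, so this count is close to the share among all genes (31.7% higher and 34.8% lower). With the replicate block 9 passed, *Il18r1* in addition, beside 10267 of the 14205 genes. A 2-fold change or more was seen for *Ifngr1* (to 0.173), *Il6ra* (to 0.302), *Ifnar1* (to 0.395), *Il6st* (to 0.447) and *Il12rb1* (2.74-fold higher), beside 23.2% of all genes. With PGE2 present all 10 chains passed, 4 higher and 6 lower, beside 64.2% of 14507 genes (32.5% higher and 31.7% lower), and 4 of them changed at least 2-fold, beside 22.1%. The groups did not overlap in 7 chains without PGE2 and in 10 with it, beside 61.6% and 60.2% of all genes. The comparisons for PGE2 and for stimulation share samples, so their values stand side by side and are not independent.

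*Ifngr1* (ENSMUSG00000020009, GRCm38 chr10:19591949-19610229, + strand), the ligand-binding chain of the IFNγ receptor, differed most between groups among the 10 chains, its highest group mean being 9.03 times its lowest, followed by *Il6ra* with 7.83 times. Its level in replicates 1 to 4 was 754, 724, 712 and 649 CPM in unstimulated untreated cells and 1279, 1155, 1069 and 983 CPM in unstimulated PGE2 cells. With beads it was 101.6, 96.2, 143 and 157 CPM without PGE2 and 399, 402, 518 and 552 CPM with PGE2. No group overlapped another, and the order was unstimulated PGE2 (1122 ± 126 CPM, SD, n = 4), unstimulated untreated (709.9 ± 44.3), stimulated PGE2 (467.5 ± 78.9) and stimulated untreated (124 ± 29.9).

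The log2 fold change of *Ifngr1* with PGE2 was 1.92 (SE 0.181, adjusted p = 3.03e-04) in stimulated and 0.68 (SE 0.0786, adjusted p = 9.64e-05) in unstimulated cells. Within replicate numbers the log2 differences were 1.82 to 2.06 in stimulated and 0.59 to 0.76 in unstimulated cells, higher with PGE2 in 4 of 4 numbers in each. The difference between the 2 effects was 1.25 on the log2 scale (SE 0.204, 95% interval 0.82 to 1.68, adjusted p = 0.00682 in a fit of all 16 samples), and *Ifngr1* was the member that passed this interaction test, beside 0.749% of 15096 genes. Stimulation lowered *Ifngr1* by 2.53 on the log2 scale without PGE2 (SE 0.139, adjusted p = 2.55e-08) and by 1.25 with PGE2 (SE 0.115, adjusted p = 5.63e-06).

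*Ifngr2*, the second chain of the IFNγ receptor, was at 20.3, 22.6, 25.1 and 26.4 CPM in unstimulated untreated and at 44.8, 43.6, 51.5 and 43.5 CPM in unstimulated PGE2 cells. In stimulated cells its level was 6.67, 7.64, 10.5 and 11.1 CPM without PGE2 and 15.3, 16.4, 21.6 and 21.0 CPM with PGE2. Treated and untreated samples did not overlap in either state. PGE2 raised *Ifngr2* by a log2 fold change of 1.06 (SE 0.187, adjusted p = 0.00736) in stimulated and 0.97 (SE 0.0958, adjusted p = 3.35e-05) in unstimulated cells, and stimulation lowered it by 1.42 without and by 1.29 with PGE2. Both chains of this receptor therefore moved in the same direction in all 4 comparisons.

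**Figure D2:**
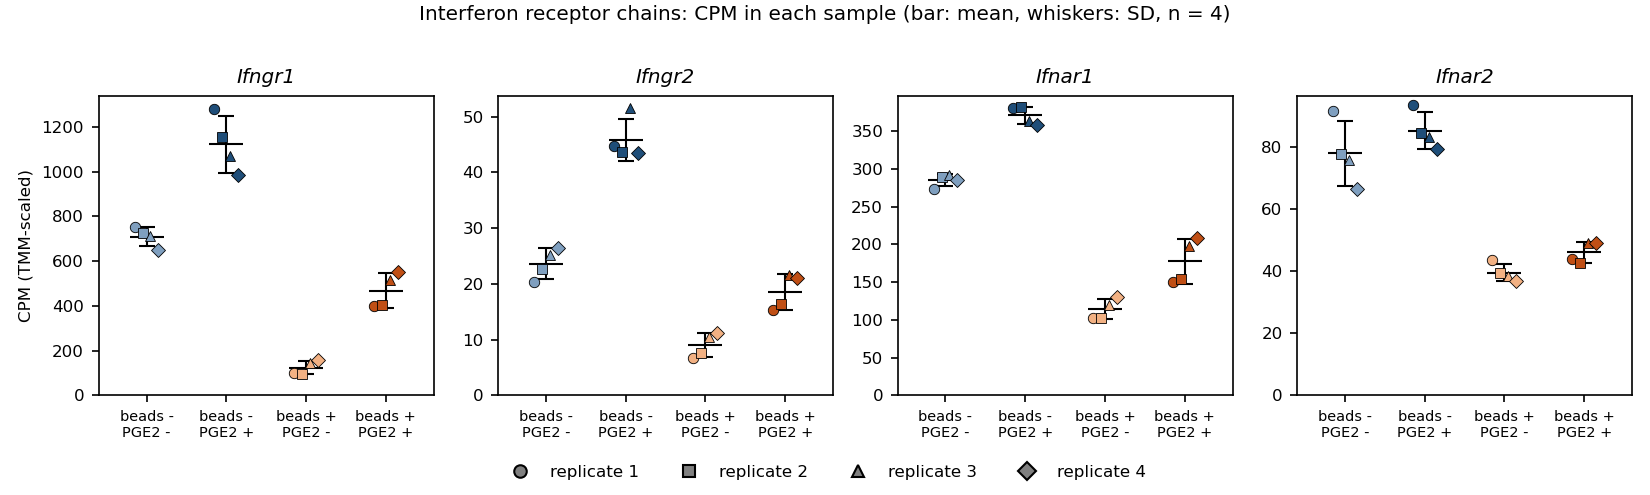
CPM (y axis, from 0) of the 4 interferon receptor chains in each of the 16 samples, with the mean and SD of 4 replicates per group; marker shape gives the replicate number. *Ifngr1* and *Ifngr2* are higher in all PGE2 samples than in the untreated samples of the same state, whereas the samples of *Ifnar2* overlap.

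*Ifnar1* (ENSMUSG00000022967, chr16:91485238-91507441, + strand), a chain of the type I interferon receptor, followed the same order of groups as *Ifngr1* with smaller steps. It was at 274, 289, 292 and 285 CPM in unstimulated untreated and 381, 382, 363 and 359 CPM in unstimulated PGE2 cells. With beads it was at 103, 103, 119.5 and 130.1 CPM without PGE2 and at 151, 154, 198 and 208 CPM with PGE2. No group overlapped another. The log2 fold change with PGE2 was 0.65 (SE 0.126, adjusted p = 0.0115) in stimulated and 0.40 (SE 0.0529, adjusted p = 2.28e-04) in unstimulated cells, a difference of 0.26 (95% interval -0.035 to 0.55, adjusted p = 0.631). Stimulation lowered *Ifnar1* by 1.34 without and by 1.05 with PGE2 on the log2 scale.

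*Ifnar2*, its partner, was at 66.6 to 91.9 CPM in unstimulated untreated and 79.6 to 93.8 CPM in unstimulated PGE2 cells, and at 36.9 to 43.6 and 42.6 to 49.1 CPM in stimulated untreated and PGE2 cells. Its log2 fold change with PGE2 was 0.23 in stimulated (adjusted p = 0.0881, with the replicate block 0.0193) and 0.15 in unstimulated cells (adjusted p = 0.225, with the block 0.00559). Stimulation lowered *Ifnar2* by 0.99 without and 0.87 with PGE2 on the log2 scale.

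**Figure D3:**
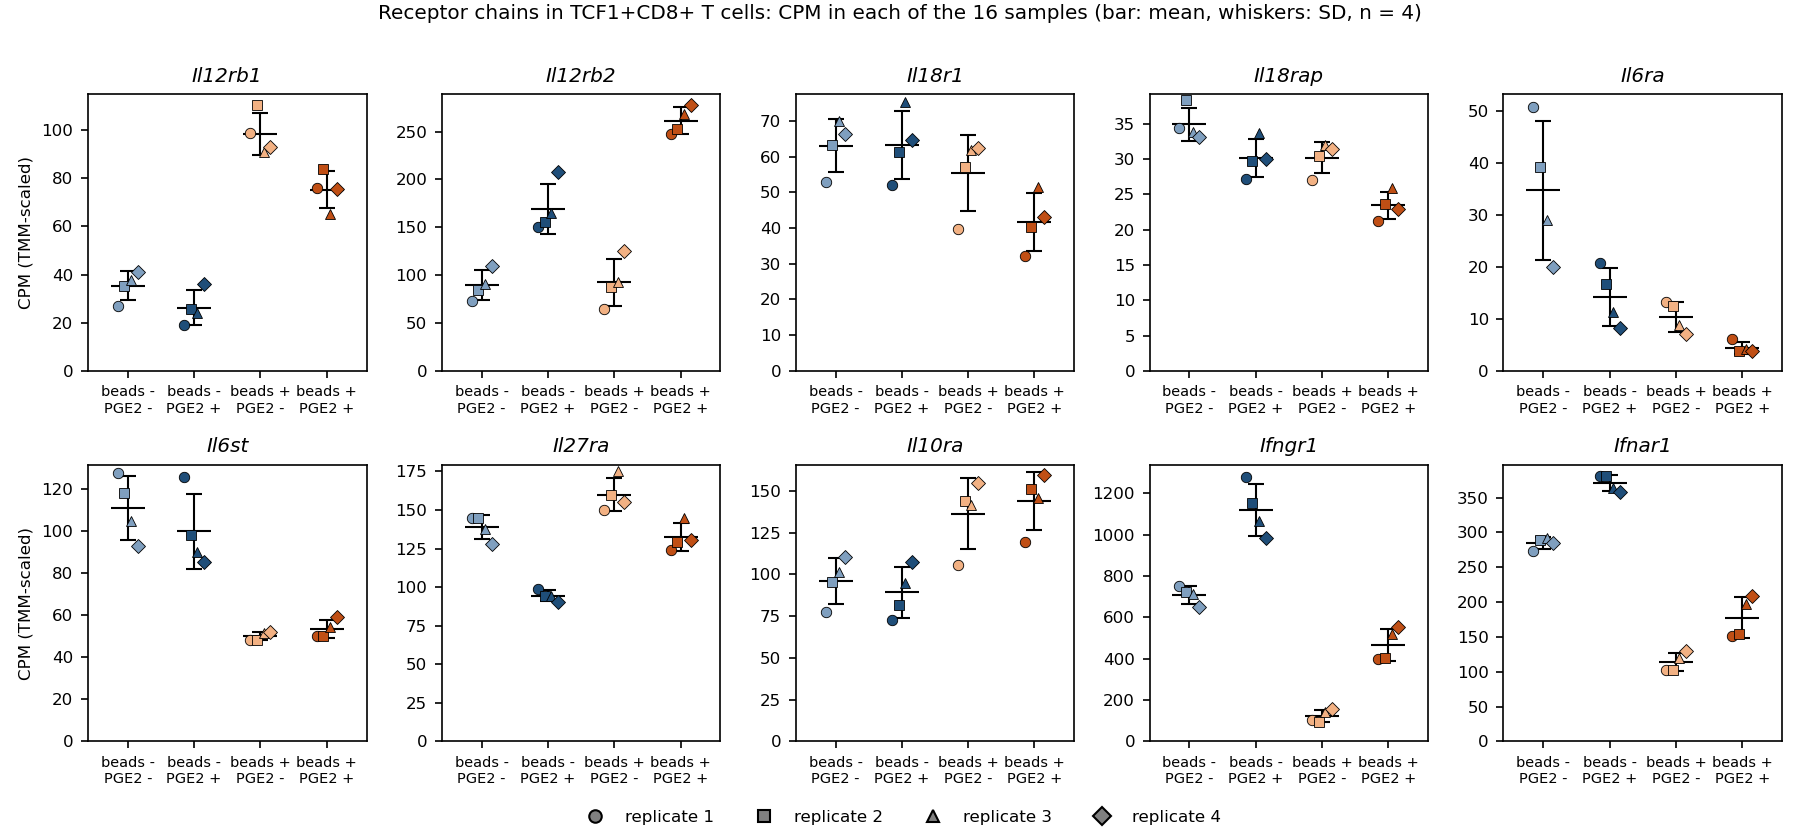
CPM (y axis, from 0) of the 10 receptor chains in each of the 16 samples, with the mean and SD of 4 replicates per group; marker shape gives the replicate number, and beads and PGE2 are marked below each group. *Il12rb2* and *Ifngr1* are higher in every PGE2 sample than in the untreated samples of the same state, and *Il6ra* is lowest in the stimulated PGE2 samples, at 3.77 to 6.05 CPM.

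The chains of the IL-12 receptor differed in their response. *Il12rb2* (ENSMUSG00000018341, chr6:67291318-67376188, - strand) was at 72.9, 85.0, 90.7 and 109.9 CPM in unstimulated untreated and at 150.2, 155, 165 and 207 CPM in unstimulated PGE2 cells. Stimulated cells had 64.5, 87.5, 93.3 and 125 CPM without PGE2 and 247, 253, 268 and 278 CPM with PGE2. Treated and untreated samples did not overlap in either state, while the untreated samples of the 2 states overlapped. The log2 fold change of *Il12rb2* with PGE2 was 1.51 (SE 0.168, adjusted p = 7.23e-04) in stimulated and 0.94 (SE 0.133, adjusted p = 3.60e-04) in unstimulated cells. The difference between these effects, 0.58 (95% interval 0.11 to 1.05), did not pass (adjusted p = 0.369). Stimulation changed *Il12rb2* with PGE2 present (0.64, SE 0.104, adjusted p = 2.86e-04), and without PGE2 its log2 fold change was 0.02 (95% interval -0.33 to 0.38, adjusted p = 0.910; -0.067 with upper-quartile factors).

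*Il12rb2* shares 40.0% of its exon bases, 1519 of 3794 with 631 of them coding, with *Serbp1* on the opposite strand, a gene at up to 1680 CPM. Whether the counting used strand is not given in the sources used here, so reads from these bases cannot be assigned to either gene and the level of *Il12rb2* is uncertain. *Serbp1* was at 812.5 ± 41.4 CPM in unstimulated untreated, 570 ± 35.2 in unstimulated PGE2, 1480 ± 143 in stimulated untreated and 1269 ± 155 CPM in stimulated PGE2 cells (SD, n = 4). It fell with PGE2 in unstimulated cells by 0.49 on the log2 scale (adjusted p = 1.98e-04), was at -0.21 with PGE2 in stimulated cells (adjusted p = 0.198), and rose with stimulation by 0.85 without PGE2 and 1.17 with PGE2. The sign of the log2 fold change of *Serbp1* was opposite to that of *Il12rb2* for PGE2 in both states, and the same for stimulation with PGE2. For stimulation without PGE2 both values were positive, that of *Il12rb2* being 0.02. The part of *Serbp1* reads in the counts of *Il12rb2* was not tested.

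*Il12rb1* (ENSMUSG00000000791, chr8:70808449-70821424, + strand), the chain that IL-12 and IL-23 receptors share, was set mainly by stimulation. It was at 27.1, 35.4, 37.8 and 41.3 CPM in unstimulated untreated and 18.9, 25.8, 24.2 and 36.2 CPM in unstimulated PGE2 cells. With beads it reached 98.9, 110.3, 90.8 and 93.1 CPM without PGE2 and 75.9, 84.0, 65.3 and 75.5 CPM with PGE2. All stimulated samples lay above all unstimulated samples, and stimulation raised it by 1.46 (SE 0.121, adjusted p = 4.09e-07) without and 1.53 (SE 0.174, adjusted p = 2.40e-05) with PGE2 on the log2 scale. PGE2 lowered it in stimulated cells by 0.38 (SE 0.0909, adjusted p = 0.0290), with no overlap of the groups. This call was lost in 1 fit of all 16 samples (adjusted p = 0.0974) and without stimulated PGE2 replicate 3 (0.0810) or 4 (0.0592) or stimulated untreated replicate 1 (0.0800) or 2 (0.0919). In unstimulated cells its log2 fold change with PGE2 was -0.41 (95% interval -0.81 to -0.0029, adjusted p = 0.126, with the replicate block 5.52e-05), and the groups overlapped. Within replicate numbers the log2 difference was -0.64 to -0.19, lower in 4 of 4 numbers. Leaving out unstimulated PGE2 replicate 4 gave an adjusted p of 0.0134 in the fit without the block.

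The IL-18 receptor chains lie next to each other on chromosome 1, *Il18r1* (ENSMUSG00000026070) at chr1:40465552-40500854 and *Il18rap* (ENSMUSG00000026068) at chr1:40515362-40551705, both on the + strand and 14508 bases apart. *Il18r1*, the binding chain, was at 52.8, 63.2, 69.9 and 66.4 CPM in unstimulated untreated and 52.2, 61.2, 75.3 and 64.5 CPM in unstimulated PGE2 cells. It was at 39.8, 57.2, 61.9 and 62.5 CPM in stimulated untreated and 32.1, 40.2, 51.6 and 43.0 CPM in stimulated PGE2 cells. The groups overlapped in both PGE2 comparisons. Its log2 fold change with PGE2 was -0.40 in stimulated cells (95% interval -0.78 to -0.021, adjusted p = 0.165) and 0.03 in unstimulated cells (-0.24 to 0.29, adjusted p = 0.898). The stimulated value passed with the replicate block (adjusted p = 4.57e-04). Stimulation lowered *Il18r1* with PGE2 present by 0.59 on the log2 scale (adjusted p = 0.00463), and without PGE2 its value was -0.21 (95% interval -0.49 to 0.07, adjusted p = 0.170, with the block 0.00894).

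*Il18rap*, the signalling chain, was at 34.4, 38.3, 33.9 and 33.1 CPM in unstimulated untreated and 27.2, 29.7, 33.7 and 30.1 CPM in unstimulated PGE2 cells. In stimulated cells it was at 27.1, 30.5, 32.0 and 31.4 CPM without PGE2 and 21.3, 23.7, 25.9 and 22.9 CPM with PGE2. The stimulated groups did not overlap, and PGE2 lowered *Il18rap* there by 0.36 on the log2 scale (SE 0.0885, adjusted p = 0.0325). The call was lost with upper-quartile factors (adjusted p = 0.0563) and without stimulated PGE2 replicate 2 (0.0660) or 4 (0.0754) or stimulated untreated replicate 2 (0.0929), 3 (0.0869) or 4 (0.0625). In unstimulated cells the log2 fold change was -0.19 (95% interval -0.37 to -0.0020, adjusted p = 0.125, with the replicate block 0.0222). Without unstimulated PGE2 replicate 3 the adjusted p was 0.0460 in the fit without the block. Stimulation lowered *Il18rap* by 0.22 without PGE2 (adjusted p = 0.0222) and by 0.35 with PGE2 (adjusted p = 0.00802) on the log2 scale. The former call was lost with DESeq2 (adjusted p = 0.0696) and without stimulated untreated replicate 1 (0.0773) or unstimulated untreated replicate 2 (0.0911).

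*Il6ra* (ENSMUSG00000027947, chr3:89864059-89913196, - strand), the IL-6-binding chain, was lower with PGE2 and lower with beads. It was at 50.9, 39.3, 29.0 and 19.9 CPM in unstimulated untreated and 20.9, 16.6, 11.3 and 8.20 CPM in unstimulated PGE2 cells. With beads it was at 13.3, 12.4, 8.93 and 7.05 CPM without PGE2 and 6.05, 3.77, 4.13 and 3.80 CPM with PGE2. The unstimulated groups overlapped, since the lowest untreated sample lay below the highest treated sample, and the stimulated groups did not.

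PGE2 lowered *Il6ra* by 1.22 on the log2 scale in stimulated cells (SE 0.227, adjusted p = 0.00918) and by 1.27 in unstimulated cells (SE 0.301, adjusted p = 0.00852). Within replicate numbers the log2 difference was -1.70 to -0.88 in stimulated and -1.35 to -1.24 in unstimulated cells, lower in 4 of 4 numbers in each. The effects in the 2 states differed by 0.06 on the log2 scale, with a 95% interval of -0.85 to 0.96 that does not show them to be alike (adjusted p = 0.999). Stimulation lowered *Il6ra* by 1.73 without PGE2 (SE 0.266, adjusted p = 8.39e-05) and by 1.65 with PGE2 (SE 0.276, adjusted p = 3.37e-04). On the log2(FPKM + 1) scale, which understates changes of low genes, limma gave -1.13 without and -0.77 with PGE2, both past the test (adjusted p = 8.99e-04 and 0.00248). Of its exon bases 2.80% are shared with *Gm42809* on the opposite strand, which did not exceed 0.301 CPM.

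*Il6st* (ENSMUSG00000021756, chr13:112464070-112510086, + strand), the shared signalling chain gp130, was at 128, 118, 105 and 93.1 CPM in unstimulated untreated and 126, 98.1, 90.3 and 85.4 CPM in unstimulated PGE2 cells. With beads it was at 48.4, 48.4, 51.5 and 52.0 CPM without PGE2 and 50.2, 50.2, 54.7 and 59.2 CPM with PGE2. All stimulated samples lay below all unstimulated samples. Stimulation lowered *Il6st* by 1.16 without PGE2 (SE 0.0900, adjusted p = 2.37e-07) and 0.88 with PGE2 (SE 0.109, adjusted p = 4.02e-05). Its log2 fold change with PGE2 was 0.10 in stimulated (95% interval -0.058 to 0.27, adjusted p = 0.371) and -0.13 in unstimulated cells (-0.39 to 0.12, adjusted p = 0.438, with the replicate block 0.00891).

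*Il27ra* (ENSMUSG00000005465, chr8:84030294-84042589, - strand), which binds IL-27, was at 145, 145, 138 and 128 CPM in unstimulated untreated and 98.8, 94.5, 94.1 and 90.6 CPM in unstimulated PGE2 cells. With beads it was at 150.3, 159.5, 175 and 155 CPM without PGE2 and 124, 129.5, 145 and 131 CPM with PGE2. The groups did not overlap in either PGE2 comparison. PGE2 lowered *Il27ra* by 0.54 on the log2 scale in unstimulated cells (SE 0.0552, adjusted p = 4.53e-05). In stimulated cells the value was -0.27 (95% interval -0.44 to -0.098, adjusted p = 0.0531), and it passed with RLE factors (0.0434), DESeq2 (0.00743), limma on log2(FPKM + 1) (0.0441), 1 fit of all 16 samples (0.0115) and the replicate block (4.04e-04). Stimulation raised it by 0.19 without PGE2 (adjusted p = 0.0320) and by 0.50 with PGE2 (adjusted p = 6.76e-05). The former call was lost with upper-quartile factors (adjusted p = 0.245), without the filter on low counts (0.102), and without stimulated untreated replicate 2 (0.0694) or 3 (0.115) or unstimulated untreated replicate 2 (0.0511), 3 (0.0790) or 4 (0.104).

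*Il10ra* (ENSMUSG00000032089, chr9:45253837-45269149, - strand), the IL-10-binding chain, was at 77.6, 95.2, 101.2 and 110.4 CPM in unstimulated untreated and 72.9, 81.4, 95.1 and 108 CPM in unstimulated PGE2 cells. With beads it was at 106, 144, 142 and 155 CPM without PGE2 and 119.6, 151, 146 and 159 CPM with PGE2. PGE2-treated and untreated samples overlapped in both states, as did stimulated and unstimulated samples without PGE2. The log2 fold change with PGE2 was 0.08 in stimulated (95% interval -0.20 to 0.37, adjusted p = 0.702) and -0.08 in unstimulated cells (-0.38 to 0.21, adjusted p = 0.693). Stimulation raised *Il10ra* by 0.49 without (SE 0.123, adjusted p = 0.00360) and 0.70 with PGE2 (SE 0.129, adjusted p = 6.76e-04). *Il10rb*, its partner, was lowered by stimulation, by 0.81 without and 0.91 with PGE2 on the log2 scale.

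Levels of different genes were compared as FPKM (fragments scaled to gene length and library size). For every member this length equals the union of its annotated exons, not the length of a single transcript. The order of the chains and the ratios between them depend on that length. *Ifngr1* had the highest FPKM of the 10 chains in 3 groups, at 237 ± 15.6 in unstimulated untreated, 379.5 ± 43.9 in unstimulated PGE2 and 156 ± 25.0 in stimulated PGE2 cells (SD, n = 4). In stimulated untreated cells it was at 41.4 ± 9.15 FPKM, and its samples overlapped those of *Il27ra* (43.5 ± 2.55) and *Il10ra* (37.0 ± 5.25). *Il12rb2* stood at position 5 of 10 in unstimulated untreated cells (22.5 ± 3.80 FPKM), where its samples overlapped those of *Il10ra*, and at position 2 in stimulated PGE2 cells (65.5 ± 2.98 FPKM), apart from its neighbours in the order. Both positions rest on a level that the bases shared with *Serbp1* leave uncertain. *Il6ra* had the lowest mean in every group, from 3.83 ± 1.48 FPKM in unstimulated untreated to 0.488 ± 0.125 FPKM in stimulated PGE2 cells. In unstimulated untreated cells its samples overlapped those of *Il18rap* (4.92 ± 0.343 FPKM). The highest mean FPKM exceeded the lowest 61.9-fold in unstimulated untreated, 239-fold in unstimulated PGE2, 37.8-fold in stimulated untreated and 319-fold in stimulated PGE2 cells.

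Because these chains act in pairs, the ratio of their FPKM was taken in each sample. *Il12rb2* over *Il12rb1* was 2.75 ± 0.174 in unstimulated untreated, 7.17 ± 1.07 in unstimulated PGE2, 1.03 ± 0.326 in stimulated untreated and 3.80 ± 0.521 in stimulated PGE2 cells (SD, n = 4), and no group overlapped another in the comparisons made. The bases that *Il12rb2* shares with *Serbp1* leave this ratio uncertain as well. *Il6ra* over *Il6st* was 0.392 ± 0.101, 0.179 ± 0.0451, 0.270 ± 0.0850 and 0.108 ± 0.0320 in the same order, lower in all PGE2 samples than in the untreated samples of the same state. *Ifngr1* over *Ifngr2* was 40.4 ± 7.08, 32.6 ± 4.69, 18.4 ± 1.45 and 33.4 ± 1.55, so that stimulated PGE2 cells, with 31.7 to 34.7, lay within the range of 27.5 to 49.1 that the unstimulated groups spanned and above stimulated untreated cells at 16.7 to 20.2. *Il27ra* over *Il6st* was 4.01 ± 0.337, 3.06 ± 0.398, 10.1 ± 0.590 and 7.87 ± 0.622. *Il18r1* over *Il18rap* stayed between 2.06 and 3.13 in all 16 samples. Exact two-sided permutation tests of 4 against 4 samples cannot go below p = 0.0286, and over the 28 comparisons of 7 ratios the smallest Benjamini-Hochberg adjusted p was 0.0571, so no ratio passed.

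**Figure D4:**
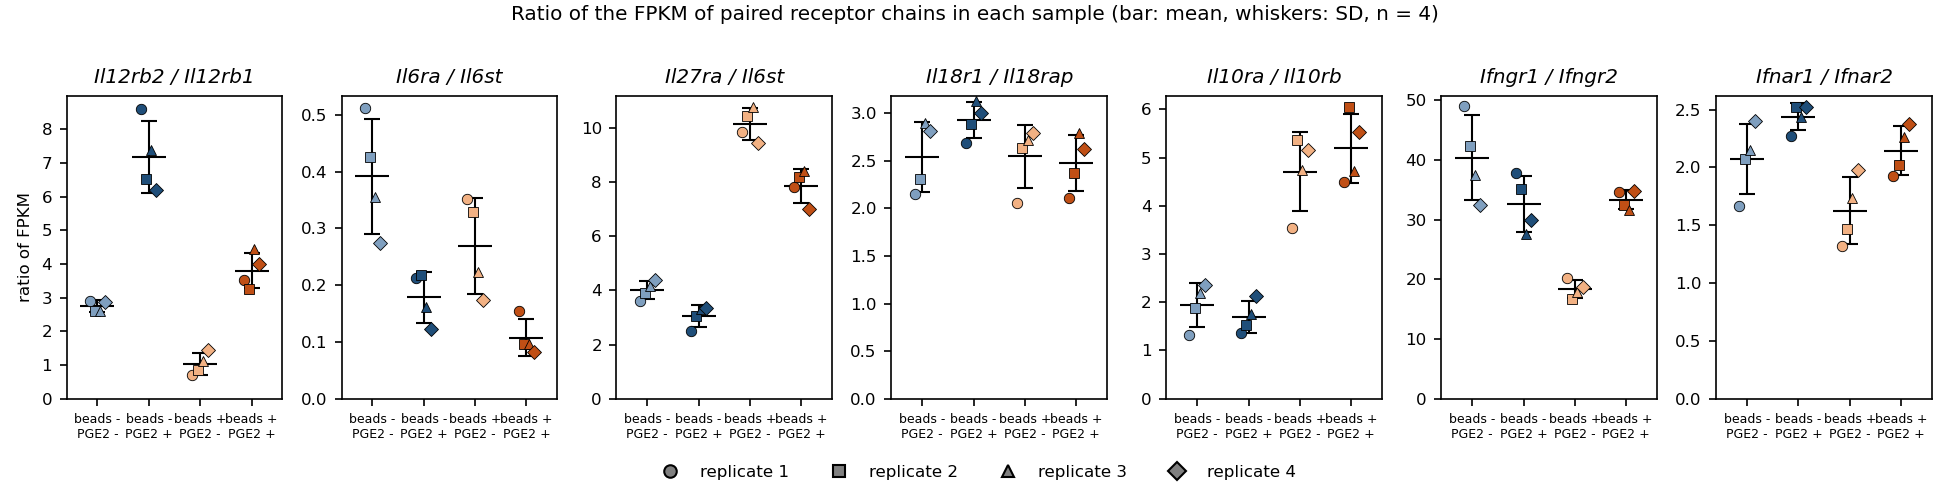
Ratio of FPKM (y axis, from 0) of 7 pairs of receptor chains in each of the 16 samples, with the mean and SD of 4 replicates per group; marker shape gives the replicate number. *Il12rb2* over *Il12rb1* is highest in unstimulated PGE2 cells (7.17) and lowest in stimulated untreated cells (1.03), and *Il6ra* over *Il6st* is lower with PGE2 in both states. The level of *Il12rb2* is uncertain, since it shares exon bases with *Serbp1*.

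Of 14 partner and related receptor chains, 7 had enough counts to be tested in stimulated cells and 6 in unstimulated cells. With PGE2, *Ifngr2* rose and *Il1rl1*, the IL-33 receptor ST2, fell in stimulated cells, beside 9.84% of all genes past the test. In unstimulated cells *Ifngr2* rose, beside 28.4% of all genes. With the replicate block the counts were 5 in each state, beside 39.8% of all genes in stimulated and 47.8% in unstimulated cells, with *Ifnar2*, *Il1rap* and *Il17ra* joining in both and *Il11ra1* in unstimulated cells. *Il1rl1* was at 3.10, 3.27, 1.78 and 2.32 CPM in stimulated untreated and 0.807, 0.963, 0.357 and 0.598 CPM in stimulated PGE2 cells, a log2 fold change of -1.96 (SE 0.313, adjusted p = 0.00443). All its unstimulated samples were at 0.338 CPM or less. Stimulation without PGE2 raised *Il1rl1* by 3.62 and *Il1rap* by 1.16 and lowered the other 5 chains tested, *Il17ra* by 1.51, *Ifngr2* by 1.42, *Il11ra1* by 1.27, *Ifnar2* by 0.99 and *Il10rb* by 0.81 on the log2 scale, and with PGE2 the same 7 moved in the same directions. Most genes moved with stimulation, 66.5% of all genes passing without PGE2 (34.8% lower) and 64.2% with it (31.7% lower).

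Of 11 genes for the ligands and their soluble binders, 6 were tested in stimulated cells. In the edgeR fit 0 of them passed for PGE2, beside 9.84% of all genes, with 3 at an unadjusted p below 0.05. DESeq2 called 1, beside 2067 of 25904 genes, and the replicate block called 3, beside 39.8% of all genes. *Ifng*, the ligand of *Ifngr1*, was at 663 to 1259 CPM in stimulated untreated and 109 to 773 CPM in stimulated PGE2 cells, a log2 fold change of -1.14 (SE 0.509, adjusted p = 0.184, with the block 0.00112). *Il10* was at 2.62 to 5.735 CPM in stimulated untreated and 0.427 to 2.76 CPM in stimulated PGE2 cells. Its log2 fold change was -1.50 (SE 0.421, adjusted p = 0.0505, with the block 0.00332). In unstimulated cells, where 5 were tested, *Ifng* was lower by 2.05 (3.40 to 26.4 against 0.949 to 5.50 CPM, adjusted p = 0.0431). *Il10* was lower there by 1.24, at under 1 CPM in all unstimulated samples (adjusted p = 0.0451), and 28.4% of all genes passed. With the replicate block both passed (adjusted p = 1.70e-09 and 0.0202), beside 47.8% of all genes, whereas DESeq2 called 0 of these genes. Stimulation raised *Ifng* by 6.54, *Il10* by 3.38, *Il23a* by 2.98 and *Il18bp* by 0.73 and lowered *Il18* by 0.78 on the log2 scale without PGE2. Of the 6 tested, 4 were thus higher and 1 lower, beside 31.7% and 34.8% of all genes.

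All 20 signalling genes were tested. With PGE2 in stimulated cells 4 rose, *Stat4*, which IL-12 activates, by 0.80 (adjusted p = 0.00723), *Stat3*, which IL-6 and IL-10 activate, by 0.67 (0.00531), *Irak2* of the IL-18 pathway by 0.61 (0.0346) and *Jak1* by 0.21 (0.0415), and 16 did not pass, beside 6.04% of all genes higher and 3.8% lower. With the replicate block 8 of the 20 passed, beside 39.8% of all genes. *Stat4* was at 58.0 ± 10.3 CPM in stimulated untreated and 100.2 ± 14.3 CPM in stimulated PGE2 cells (SD, n = 4). In unstimulated cells 9 rose, among them *Stat3* by 0.95, *Irak2* by 0.78, *Socs1* by 0.40 and *Stat4* by 0.36, and 2 fell, *Ptpn6*, which encodes the phosphatase SHP-1, by 0.89 (adjusted p = 2.98e-06) and *Irak1* by 0.23, beside 12.9% of all genes higher and 15.5% lower. *Ptpn6* was at 372 ± 11.2 CPM in unstimulated untreated and 198.5 ± 8.89 CPM in unstimulated PGE2 cells, and its PGE2 effect differed between the states by 0.66 on the log2 scale (adjusted p = 0.00382). Stimulation without PGE2 raised 8 of these genes, *Cish* by 2.83 and *Socs1*, feedback inhibitors of cytokine signalling, by 1.88, and lowered 5, *Irak2* by 1.45, *Jak1* by 1.07 and *Stat4* by 0.81 among them. Among all genes 31.7% were higher and 34.8% lower, 66.5% in all, so the 13 of 20 lay near the background.

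To place each chain among all genes, the 2 genes with the most similar profile of log2 CPM over the 16 samples were found among the 12253 genes that averaged 1 CPM or more, as a description, since the samples share their groups. For *Ifngr1* these were *Sesn3* (r = 0.995) and *Vps37b* (0.992), for *Ifnar1* *Calcoco1* (0.997) and *Wdr45* (0.996), and for *Il6st* *Otulinl* and *Elf4* (0.993 each). *Il12rb1* was nearest to *Bst2* (0.992) and *Gzmb* (0.990), the latter encoding granzyme B. *Il12rb2* was nearest to *Prss16* (0.958) and *Ntrk3* (0.955), *Il6ra* to *Fry* and *Pglyrp2* (0.981 each), and *Il27ra* to *Vars* (0.971) and *Thy1* (0.953). *Il18rap* was nearest to *Adgrg5* (0.971) and *Cdc14b* (0.934), *Il18r1* to *Gm11832* (0.921) and *Pidd1* (0.918), and *Il10ra* to *Sema6d* (0.969) and *Plxna3* (0.959). Among the chains themselves r over the 16 samples was 0.963 for *Ifngr1* and *Ifnar1*, 0.851 for *Il18r1* and *Il18rap*, and 0.0343 for *Il12rb1* and *Il12rb2*.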

How the data were processed

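Libraries were prepared from poly(A) RNA with a NEBNext Ultra kit. The authors aligned reads to GRCm38 with HISAT2 2.0.5 and counted them per gene with featureCounts 1.5.0-p3 (DESeq2 1.20.0 is also in the submitters' processing notes); the annotation release and use of strand are not given in the sources used here. The authors deposited whole-number counts per gene without normalization and FPKM values derived from them, both for 16 samples in 4 groups of 4.

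The deposited counts were tested with edgeR 4.0.16 in R 4.3.3 (filterByExpr with a minimum count of 10, TMM, glmQLFit and glmQLFTest, two-sided, Benjamini-Hochberg adjustment over all genes tested), with 8 samples per pairwise comparison and 16 for the interaction. SE and 95% intervals are on the log2 scale. CPM values are scaled by TMM factors of 0.88 to 1.09. Log2 CPM used a prior count of 2. The spread between replicates exceeded counting noise (chi-square per degree of freedom 7.81 to 51.3). The self-test on simulated data passed.

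The alternatives were RLE and upper-quartile factors, no filter, DESeq2 1.42.0, limma-trend (version 3.58.1) on the deposited FPKM, restricted to genes averaging 1 FPKM or more and logged as log2(FPKM + 1) or log2(FPKM + 0.1), the replicate number as a block, the fold threshold in the call, a single model of the 16 samples, and each replicate omitted once. What a replicate number stands for is not given. The deviations of same-numbered samples from their group means correlated at 0.19 to 0.423 (PGE2, stimulated), 0.137 to 0.444 (PGE2, unstimulated) and 0.112 to 0.359 (stimulation without PGE2). All lay above 0.1, so by this rule the samples were paired in these comparisons. For stimulation with PGE2 the correlations were 0.0439 to 0.281, and pairing was not shown. The main fits nonetheless left the replicate number out, so their SE, intervals and adjusted p do not use the pairing. The fit with the replicate block uses it and is given beside them where it changed the call of a member.

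Named genes were the 10 members and lists of partner chains (14), ligands and binders (11) and signalling genes (20), with 2 similar genes per member. The members and lists were chosen with earlier results of these data known. The coordinates of all 10 members equal those of GENCODE M21, which also gave shared exon bases. Protein sequences were not used here. Values of 1 marker gene are not reported here.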

Additional observations from a re-analysis of the deposited data

Results flagged for a closer look

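The difference between the effects of PGE2 in stimulated and unstimulated cells passed the test for *Ifngr1*, at 1.25 on the log2 scale (edgeR, adjusted p = 0.00682, n = 16 samples). It stayed between 1.15 and 1.38 with an adjusted p of at most 0.0257 when each of the 16 samples was left out in turn.

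*Il6ra* in stimulated PGE2 cells had 1 replicate, at 6.05 CPM, apart from the other 3 at 3.77 to 4.13 CPM. The gap was 0.84 of the range of the group, above the critical value of Dixon's test at the 95% level. Of 40 groups of values tested, chance alone flags about 1 in 20. Without this sample the PGE2 effect on *Il6ra* in stimulated cells was -1.41 on the log2 scale (edgeR, adjusted p = 0.00513), and it passed whichever of the 8 samples was left out.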

How the results depend on the processing

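Over the 10 chains, 5 comparisons and all alternatives, 847 of 918 values kept their direction and their side of the threshold, 37 no longer passed, 15 newly passed and 19 changed sign. The fold threshold accounted for 16 of the 37, and left 3 chains for PGE2 in stimulated cells, 1 for PGE2 in unstimulated cells, 5 for stimulation without PGE2 and 4 with it. Of the 19, 18 came from leaving out 1 replicate, and none of the 19 had passed the test in either fit. They were PGE2 on *Il10ra* (-0.0084 to 0.17 over all 8 in stimulated and -0.19 to 0.011 in unstimulated cells) and on *Il18r1* in unstimulated cells (-0.077 to 0.12), stimulation without PGE2 on *Il12rb2* (-0.14 to 0.17), and the interaction on *Il6ra* (-0.18 to 0.28) and *Il12rb1* (-0.094 to 0.22), all on the log2 scale. With upper-quartile factors *Il12rb2* was at -0.067 for stimulation without PGE2. These factors shifted the median of all genes by -0.10 for stimulation without PGE2 and -0.13 with it. The cause of these changes was not tested.

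Leaving out 1 replicate gave 4 to 6 chains for PGE2 in stimulated cells, 5 to 6 for PGE2 in unstimulated cells, 6 to 8 for stimulation without PGE2, 10 with it and 1 for the interaction. With the replicate block 8 chains passed for PGE2 in unstimulated cells, and 3 for the interaction, for which pairing was not shown, *Il12rb2* (0.61, adjusted p = 0.0131) and *Il18r1* (-0.41, adjusted p = 0.0222) joining *Ifngr1*. For the values of single chains, the block changed no call other than those given with the results and these. Limma gave no value for *Il6ra* with PGE2 in stimulated cells, where its mean FPKM was under 1. Over all genes, the block called 5544 instead of 1370 for PGE2 in stimulated, 6938 instead of 4122 in unstimulated cells and 408 instead of 113 for the interaction. DESeq2 called 2067 for PGE2 in stimulated cells and 235 for the interaction, 1 fit of all 16 samples called 2161 for the former, and limma called 43 or 53 for the interaction with a pseudocount of 1 or 0.1. Over all alternatives other than the fold threshold, the partner chains past the test for PGE2 numbered 1 to 5 in each state, ligands and binders 0 to 3 in stimulated and 0 to 2 in unstimulated cells, and signalling genes 2 to 8 and 8 to 15. Counting error is largest for *Il6ra*, whose lowest count of 89 has a counting error of 10.6%.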
